A study of Mus musculus with 48 samples.

Results

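Mitochondria make most of a cell's ATP by oxidative phosphorylation. Complex I takes electrons from NADH and complex II from succinate, both pass them to complex III, and complex IV hands them to oxygen. The proton gradient that complexes I, III and IV build drives complex V, the ATP synthase. Most of the subunits are encoded in the nucleus, and hepatocytes, which run energy-demanding synthesis and detoxification, are rich in mitochondria. The genes described here are the nuclear subunit genes of these complexes. They were taken by symbol from the deposited iris-corrected expression table, as every symbol that begins with Nduf and a, b, c, s or v, with Uqcr, with Cox and a digit from 4 to 8, or with Atp5, together with Sdha, Sdhb, Sdhc and Sdhd. This gave 94 of the 20702 genes in that table, which holds part of the 46517 genes counted and leaves out genes of low average level. The symbol pattern itself uses no measured value. Of the 94 genes, 83 encode subunits, with 36 in complex I, 4 in complex II, 8 in complex III, 18 in complex IV and 17 in complex V. The other 11 encode no subunit. They are the complex I assembly factors Ndufaf1, Ndufaf2, Ndufaf3, Ndufaf4, Ndufaf5, Ndufaf6, Ndufaf7 and Ndufaf8, and the pseudogenes or retrocopies Ndufa12-ps, Ndufs6b and Uqcrh-ps2.

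The study asked how closely liver spheroids engrafted in the anterior chamber of the eye resemble liver, using bulk Smart-seq3 RNA sequencing, a full-length cDNA method. The labels give wild-type albino mice of strain C57BL/6N for all samples, whereas the methods name the albino B6/J substrain, and the mice were adult. The labels name no transgene or drug treatment in any group. There were 5 explants, which are spheroids recovered 2 months after transplantation together with the iris they had grown on, 3 naive irises, 3 endogenous livers, 3 preparations of primary cells enriched for hepatocytes by collagenase perfusion and a density step, and 2 samples of in vitro spheroids made from such cells. Each of the 16 samples was sequenced as 3 technical libraries, which were summed. The labels do not say whether replicates of a group came from different animals or cultures, so p-values measure the spread between these samples. The explants are mixtures, and in them as in the other bulk samples fewer cells of a type and less RNA per cell cannot be told apart.

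Gene counts per sample ranged from 5449589 to 6789648 in explants, 4596550 to 4881817 in irises, 3523171 to 3871404 in livers, 2718518 to 3573075 in hepatocyte preparations and 3247327 to 3447643 in spheroids. The labelled tissues were checked against markers, in counts scaled to a common library total after TMM normalisation (CPM), which rescales each library on the assumption that most genes do not differ. The summed CPM of 12 hepatocyte markers was 20877 to 21222 in livers, 24479 to 31724 in hepatocyte preparations, 15387 to 19208 in spheroids, 4360.3 to 7207 in explants and 1169 to 1412 in irises. The irises were thus the lowest but not free of hepatocyte transcripts, and none of the 12 markers was at 0 in them. The 8 smooth muscle markers summed to 3764 to 3840.2 CPM in irises and 2707 to 3379 CPM in explants, against 295 to 335 CPM in livers. In irises against livers the median log2 fold change of all genes tested was 0.11 with TMM and 0.80 with library size alone.

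Within each complex the subunit genes spanned a wide range of transcript levels. Levels of different genes were compared per length, as TPM, which divides counts by gene length and scales each sample to the same total, averaged over the 16 samples. In complex I they ran from 29.6 TPM for Ndufab1, the acyl carrier protein, to 831 TPM for Ndufb9, an accessory subunit. In complex II, Sdhc was lowest at 112 TPM and Sdhd highest at 736 TPM, and both encode membrane anchors of the same enzyme. These ranges depend on the length used, which covers all annotated exon bases of a gene. It was 6883 bases for Ndufab1 and 651 for Ndufb9, and 3250 for Sdhc and 1287 for Sdhd. The counts of Ndufab1 and Ndufb9 lay closer together, at 220, 253 and 235 against 953, 1041 and 999 in livers. The shares of isoforms in TPM given below depend on this length too. The Rieske iron-sulfur protein gene Uqcrfs1 led complex III at 648 TPM, Cox8a led complex IV at 969 TPM, and Atp5a1, the F1 alpha subunit, led complex V at 711 TPM. Reads that mapped to several places were not counted. In 11 of the 83 subunit genes over 20% of the stretches of 31 bases in the transcripts also occurred in transcripts of another gene, with the highest share of 43.5% in Atp5o, so the levels of such genes against others are uncertain. This holds for Atp5g2, Ndufb6 and Ndufa12, which are described below.

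The promoters of these genes were read because nuclear respiratory factor 1 (NRF-1), GA-binding protein (GABP, also called NRF-2) and YY1 are known regulators of respiratory subunit genes. RefSeq promoter windows of 300 bases, from 250 bases before to 50 bases after the start site (build GRCm38.p6), were found for 68 of the 83 subunit genes. The NRF-1 word GCGCATGCG, searched on both strands, occurred in 8 of the 68 windows (11.8%), against 1.95% of the windows of 27025 genes. The YY1 word AAGATGGCG occurred in 7 (10.3%), against 1.64% of all genes, and the GABP word CCGGAAGTG in 2 (2.94%), against 2.25%. At least 1 of the 3 words was found in 17 windows (25%), against 5.55% of all genes. Of the 8 windows with the NRF-1 word, 2 belonged to complex I, 2 to complex III, 1 to complex IV and 3 to complex V, whereas 5 of the 7 with the YY1 word belonged to complex I and 2 to complex V. The YY1 word holds the letters of a start codon. Such matches are a description of the letters and not evidence of binding. The windows of 3 genes with the NRF-1 word are shown, for a core protein of complex III, the general form of a complex IV subunit and a c-ring gene of complex V, all described below, with the word in capitals. In all of them the word overlaps its own reverse complement, so that the capitals run to 10 letters.
Uqcrc1, GRCm38.p6, chr9:108936398-108936697, plus strand: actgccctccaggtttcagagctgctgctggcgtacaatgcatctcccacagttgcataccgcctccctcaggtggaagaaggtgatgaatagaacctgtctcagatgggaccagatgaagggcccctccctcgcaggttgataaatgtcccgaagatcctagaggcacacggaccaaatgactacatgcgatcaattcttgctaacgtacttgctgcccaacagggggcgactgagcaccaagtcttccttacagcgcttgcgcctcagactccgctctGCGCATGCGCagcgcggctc
Cox6a1, GRCm38.p6, chr5:115348909-115349208, minus strand: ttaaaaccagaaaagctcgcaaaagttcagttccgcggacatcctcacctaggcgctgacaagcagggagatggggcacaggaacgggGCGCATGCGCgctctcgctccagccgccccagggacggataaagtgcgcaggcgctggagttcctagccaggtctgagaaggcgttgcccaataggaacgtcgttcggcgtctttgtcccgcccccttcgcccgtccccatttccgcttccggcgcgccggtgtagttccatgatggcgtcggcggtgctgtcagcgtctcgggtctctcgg
Atp5g2, GRCm38.p6, chr15:102670998-102671297, minus strand: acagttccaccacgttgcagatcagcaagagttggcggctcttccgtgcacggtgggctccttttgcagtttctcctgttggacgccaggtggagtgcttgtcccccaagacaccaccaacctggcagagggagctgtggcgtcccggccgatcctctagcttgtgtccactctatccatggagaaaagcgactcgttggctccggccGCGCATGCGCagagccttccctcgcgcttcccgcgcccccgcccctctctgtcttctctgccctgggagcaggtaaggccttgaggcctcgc

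Summed over the 83 subunit genes, transcript levels were highest in liver tissue and hepatocytes and lower in every other group. The sum was 29681 ± 2083 TPM in livers (SD, n = 3), 28649 ± 1776 in hepatocyte preparations (SD, n = 3), 24397 ± 662 in irises (SD, n = 3), 24247 ± 86.9 in spheroids (SD, n = 2) and 21513 ± 1271 in explants (SD, n = 5). Irises reached 82.2% of the liver mean on this scale. Livers and hepatocyte preparations overlapped in TPM, and so did irises and spheroids. By complex, complex III in irises held 72.2% of the liver sum and complex II 87.8%. On the TMM-normalised CPM scale, on which the tests below were made, the iris sum was 50.8% of that in livers, and the 5 complexes lay between 44.01% in complex III and 53.3% in complex II. On that scale irises and spheroids did not overlap, with sums of 10212, 10369.6 and 10467 in irises and 14376 and 16636 in spheroids. No test was made on these sums.

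**Figure D1:**
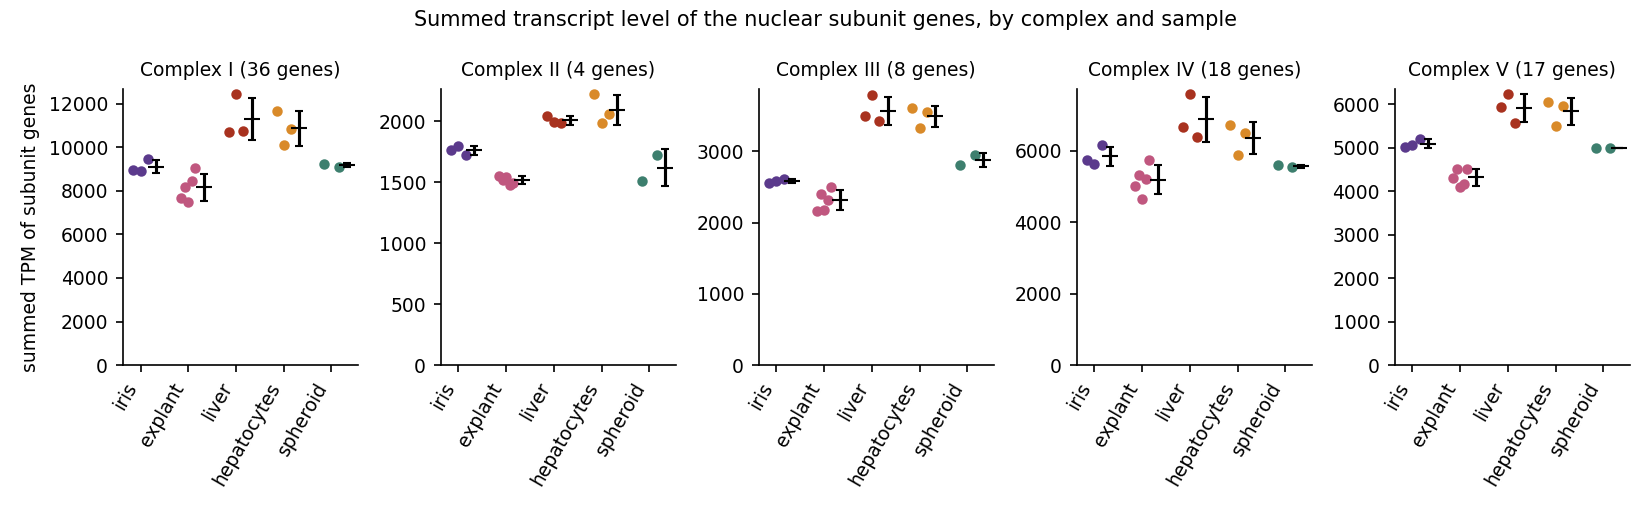
Summed TPM of the subunit genes of each complex (vertical axis, from 0) in every sample of the 5 groups, with the mean and SD of each group beside its points. In all 5 complexes the 5 explants lay below the 3 livers and below the 3 hepatocyte preparations.

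The first comparison set naive irises against livers, the 2 tissues that explants are mixed from or made to resemble. General subunits of all 5 complexes were lower in irises, and 5 tissue-specific isoforms of complex IV were higher. Of the 83 subunit genes 82 could be tested, and 76 were lower and 5 higher at an adjusted p under 0.05 (edgeR quasi-likelihood test, Benjamini-Hochberg adjustment over all genes). Among all 15459 genes tested, 73.6% were called, 39.1% higher and 34.5% lower. The median log2 fold change of the subunit genes was -1.11, against 0.11 for all genes. By complex, 35 of 36 genes were lower in complex I, 4 of 4 in complex II, 8 of 8 in complex III, 12 of 17 tested in complex IV and 17 of 17 in complex V, with medians of -1.11, -1.19, -1.26, -1.09 and -1.08. The 1 gene not called was Ndufab1, named here after its value was seen (log2 fold change -0.25, SE 0.12, adjusted p = 0.092, edgeR).

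The largest differences downward were in 3 small accessory or general subunits. Cox5a, subunit Va of complex IV (chr9:57521232-57532424, plus strand, build mm10), measured 52.3, 51.6 and 61.2 CPM in the 3 irises and 212, 269 and 226 CPM in the 3 livers. It was 4.61-fold lower (log2 fold change -2.21, SE 0.13, adjusted p = 8.36e-07, edgeR), but 38.7% of its exon bases also lie in exons of Gm26631 on the other strand and reads there were counted for both. Ndufa6, an accessory subunit of complex I, gave 61.7, 59.5 and 60.3 CPM in irises and 205, 298 and 229 CPM in livers (log2 fold change -2.12, SE 0.15, adjusted p = 2.46e-06, edgeR). For Uqcrq, a small subunit of complex III, the values were 75.3, 72.5 and 80.1 CPM and 263, 342 and 285 CPM (log2 fold change -2.07, SE 0.13, adjusted p = 9.51e-07, edgeR). In these 3 genes every iris lay below every liver, by about 4-fold.

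On the TMM scale, catalytic and core subunits of all 5 complexes were lower in irises too. Ndufs1, the iron-sulfur subunit of complex I that carries electrons from the NADH site, measured 248, 280.1 and 256 CPM in irises and 331, 349 and 364 CPM in livers (log2 fold change -0.52, SE 0.094, adjusted p = 9.25e-04, edgeR). Sdha, the flavoprotein that oxidises succinate, gave 614, 633 and 601 CPM and 978, 980.1 and 1091 CPM (log2 fold change -0.83, SE 0.086, adjusted p = 2.70e-05, edgeR). In both genes every iris lay below every liver, with smaller fold changes than in the 3 genes above. The log2 fold changes with their SE were -1.11 ± 0.089 for Ndufv1, which binds NADH, -1.21 ± 0.091 for Sdhb, the iron-sulfur partner of Sdha, -1.11 ± 0.085 for the core protein Uqcrc1, -1.37 ± 0.093 for Uqcrfs1, -1.11 ± 0.11 for the complex IV subunit Cox4i1, -0.93 ± 0.082 for Atp5a1 and -0.86 ± 0.082 for the catalytic F1 beta subunit Atp5b, with adjusted p of at most 2.70e-05 for these and Sdha in edgeR. In TPM, 3 of these genes had a higher mean in irises than in livers, Ndufs1 (118 against 91.7), Sdha (581 against 558) and Atp5b (650.3 against 638), and 13 of the 83 subunit genes had their highest group mean in irises, so the direction for single genes depends on the scale. In complex V the 5 F1 genes had a median of -0.93 and the 12 genes of the membrane part, stalk and dimer interface -1.11. Scaled by library size alone, 63 subunit genes were lower and 6 higher, while 3148 of 15459 genes were lower and 9043 higher. The subunit genes with a positive log2 fold change rose from 5 with TMM to 12. Of the 35 named genes that were called with TMM, Ndufs1, Ndufa12 and Cox7a2l were among these, at slightly higher values that were not called. Ndufab1, outside those 35, was also higher by library size, and by more. It had 401, 404 and 430 counts in irises and 220, 253 and 235 in livers. Total counts were 4596550 to 4881817 in irises and 3523171 to 3871404 in livers. Whether Ndufab1 was called with this scaling is not given here. The distance of the subunit median from the median of all genes was -1.23 with TMM and -1.22 with library size alone.

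**Figure D2:**
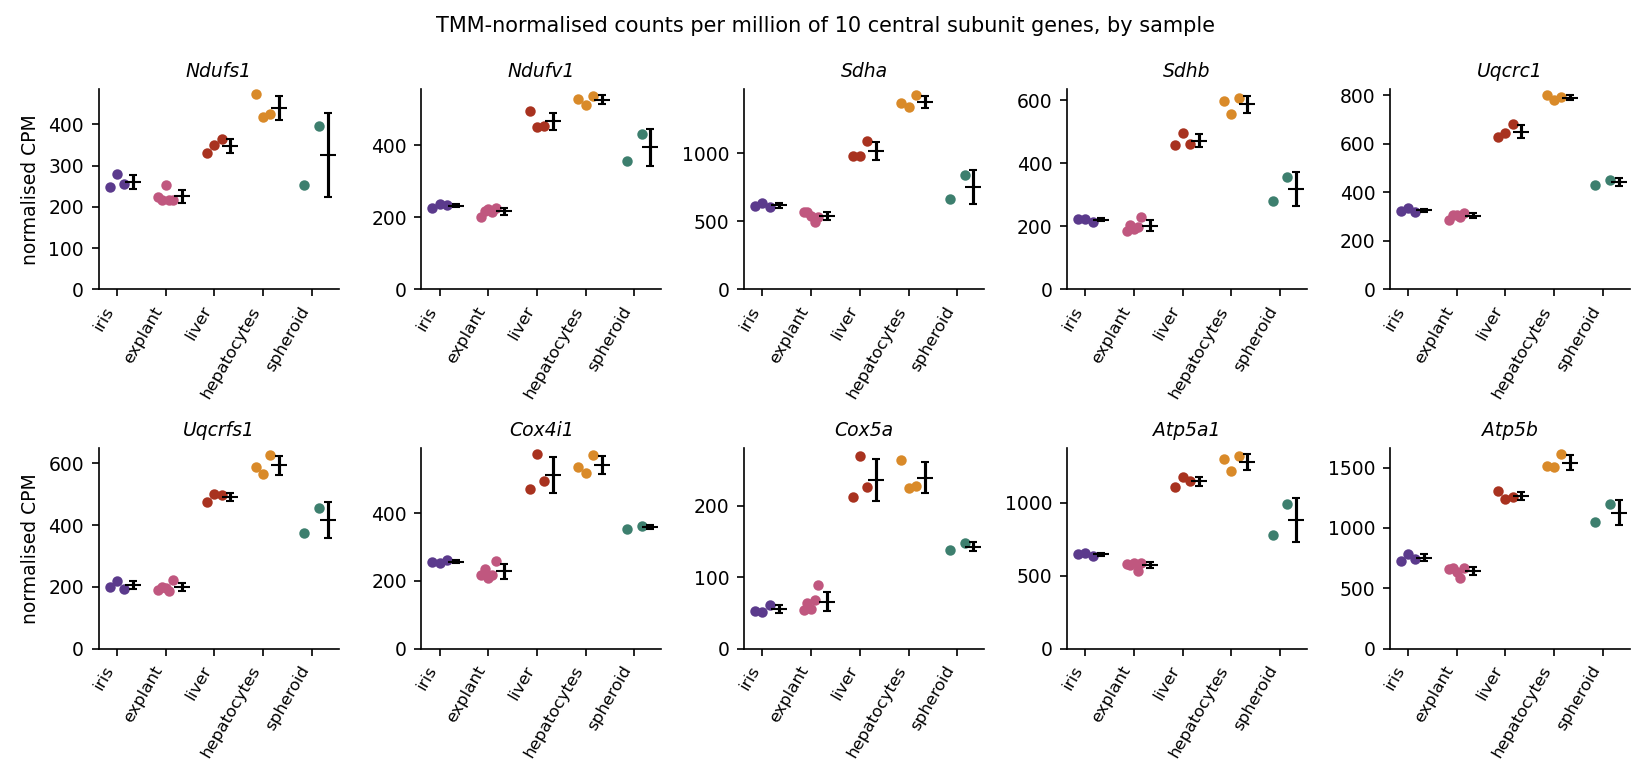
TMM-normalised CPM of 10 catalytic, core or structural subunit genes (vertical axes, from 0) in every sample, with the mean and SD of each group beside its points. In all 10 genes the irises and explants lay below the livers and hepatocyte preparations, and Ndufs1 in the 2 spheroids spread from 253 to 397 CPM.

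Several subunits of complex IV have tissue isoforms encoded by separate genes, and all 5 subunit genes called higher in irises were such isoforms. These genes passed the filter on low counts through the irises. In livers Cox6b2 had at most 10 counts, Cox8b 7, Cox4i2 4, Cox7a1 11 and Ndufa4l2 16. A call in the other direction was thus hardly possible for them. With no filter on low counts 5 subunit genes were called higher as well. Cox6b2, a form best known from testis (chr7:4751792-4753094, minus strand, build mm10), measured 46.8, 42.9 and 52.9 CPM in irises against 2.17, 3.399 and 1.903 CPM in livers, which is 17.7-fold higher (log2 fold change 4.14, SE 0.24, adjusted p = 6.30e-07, edgeR). Cox8b, a form of heart and skeletal muscle (chr7:140898943-140900446, minus strand), measured 34.3, 25.99 and 33.95 CPM and 2.17, 1.36 and 2.22 CPM (log2 fold change 3.90, SE 0.27, adjusted p = 2.02e-06, edgeR). The irises lay far above the livers in both genes, while the general forms Cox6b1 and Cox8a were lower in irises at -1.37 ± 0.13 and -1.04 ± 0.11 on the log2 scale (SE, adjusted p = 1.82e-05 and 3.99e-05, edgeR). In TPM, Cox6b2 held 16.1 ± 1.18% (SD, n = 3) of the Cox6b1 and Cox6b2 total in irises and 0.412 ± 0.0676% (SD, n = 3) in livers. The share of Cox8b in the Cox8 pair was 23.6 ± 2.42% (SD, n = 3) and 1.01 ± 0.337% (SD, n = 3). The general form thus remained the main one of both pairs in every group.

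The other 3 isoforms that were higher in irises were present at lower levels. Ndufa4l2, a paralogue of the complex IV subunit Ndufa4 that responds to hypoxia, gave 13.3, 14.4 and 12.5 CPM in irises and 2.17, 5.44 and 4.76 CPM in livers (log2 fold change 1.60, SE 0.33, adjusted p = 0.00195, edgeR). Cox4i2, an oxygen-responsive form of Cox4i1 found in lung and smooth muscle, measured 4.76, 4.57 and 4.62 CPM in irises and 1.24, 1.36 and 0.634 CPM in livers (log2 fold change 1.98, SE 0.38, adjusted p = 0.00121, edgeR). Cox7a1, the heart and muscle form of Cox7a2, measured 9.35, 7.03 and 7.91 CPM and 2.79, 1.700 and 3.49 CPM (log2 fold change 1.49, SE 0.33, adjusted p = 0.0031, edgeR). In all 3 genes the lowest iris lay above the highest liver. The remaining complex IV isoforms went otherwise. Cox7a2l, grouped here with Cox7a2 and Cox7a1, was lower in irises (log2 fold change -0.62, SE 0.11, adjusted p = 6.95e-04, edgeR). Cox6a2, the muscle form of Cox6a1, was too low to be tested, at 0 in 2 irises and 0.989 CPM in the third. Beside these values, the 11 striated muscle markers summed to 18.7 to 24.7 CPM in irises and 0.952 to 6.82 CPM in livers, with 2 of them at 0 in all 3 irises, and the 1 marker that could be tested, Ckm, was higher in irises (6.88 ± 0.62, log2 fold change and SE). All 8 smooth muscle markers were higher as well. The part of either muscle type in the isoform levels was not tested.

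**Figure D3:**
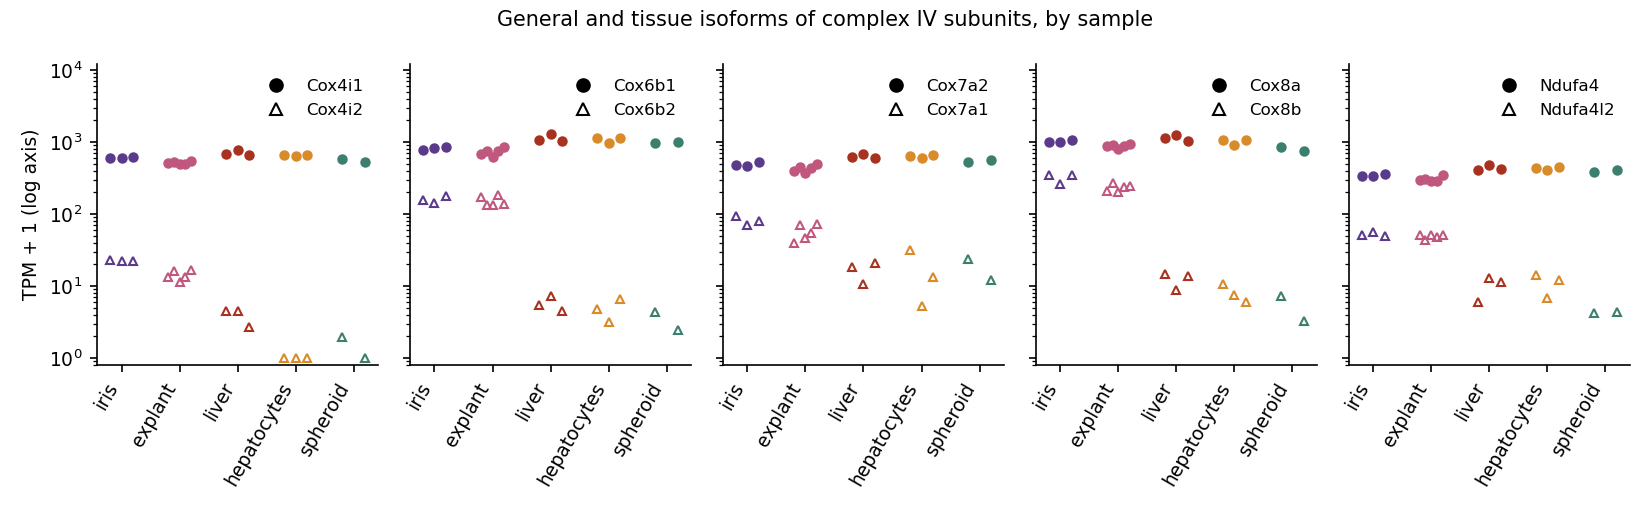
TPM + 1 on a log axis for the general form (filled circles) and the tissue isoform (open triangles) of 5 complex IV subunit pairs in every sample. Each tissue isoform was higher in irises and explants than in livers, and its general partner stood above it in every sample.

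The 3 genes of the c-ring of complex V, Atp5g1, Atp5g2 and Atp5g3, encode the same mature protein. Atp5g3 held the largest share in livers and irises alike. It gave 67.95 ± 0.451% (SD, n = 3) of their summed TPM in irises and 70.1 ± 0.518% (SD, n = 3) in livers, and the lowest group mean was 63.6 ± 1.25% (SD, n = 2), in spheroids. All 3 genes were lower in irises than in livers, at -0.93 ± 0.095, -1.03 ± 0.12 and -1.13 ± 0.11 on the log2 scale (SE).

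The second comparison asked what the engrafted spheroids add to the iris, by setting the 5 explants against the 3 irises. No subunit gene was called in either direction by edgeR, although 12 of 12 hepatocyte markers were higher in explants with a median log2 fold change of 3.13. Of 82 subunit genes tested, 18 had a positive and 64 a negative log2 fold change, with a median of -0.09 against 0.0084 for all genes. Among the 16764 genes tested 11.8% were called, 9.04% higher and 2.74% lower. At an unadjusted p under 0.05 there were 7 subunit genes lower and 0 higher. DESeq2 called 3 lower, Ndufv2 (-0.20), Atp5a1 (-0.16) and Atp5b (-0.21, log2 fold changes), and limma-voom called 0.

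Both F1 genes that DESeq2 called are catalytic or core parts of ATP synthase. Atp5b measured 663, 669, 636, 588 and 667 CPM in the 5 explants and 726, 784 and 746 CPM in the 3 irises (log2 fold change -0.19, SE 0.059, adjusted p = 0.0682, edgeR). Atp5a1 measured 580.4, 573, 583, 533 and 584 CPM and 647, 657 and 633 CPM (log2 fold change -0.15, SE 0.049, adjusted p = 0.0847, edgeR). All explants lay below all irises in both genes, but the differences did not pass the threshold. Cox5a and Ndufa6, the subunit genes furthest below liver in irises, had positive values that were not called. For Cox5a the explants gave 54.4, 64.00, 54.9, 67.3 and 88.3 CPM, from overlap with the irises up to well above them (log2 fold change 0.29, SE 0.16, adjusted p = 0.283, edgeR), and for Ndufa6 55.7, 72.97, 56.9, 72.8 and 99.1 CPM (log2 fold change 0.27, SE 0.18, adjusted p = 0.358, edgeR). In both genes explant 6 was the highest. Leaving explant 6 out raised the number of subunit genes called lower from 0 to 11, and scaling by library size alone raised it to 12, with none called higher in either case. Over all genes, those called lower rose from 460 to 596 without explant 6 and to 890 with library size alone. Those called higher went from 1515 to 1366 and 1367.

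The complex IV isoforms of iris were also present in the explants, all above the livers. Cox6b2 measured 51.3, 42.6, 40.3, 56.1 and 47.5 CPM, which overlapped the irises (log2 fold change 0.034, SE 0.12, adjusted p = 0.89, edgeR), and Ndufa4l2 13.2, 11.8, 13.4, 12.8 and 15.2 CPM (log2 fold change 0.016, SE 0.13, adjusted p = 0.954, edgeR). Cox8b measured 20.4, 28.9, 20.2, 23.7 and 27.4 CPM (log2 fold change -0.35, SE 0.16, adjusted p = 0.189, edgeR) and Cox4i2 2.66, 3.44, 2.28, 2.77 and 3.87 CPM (log2 fold change -0.60, SE 0.24, adjusted p = 0.135, edgeR). Cox4i2 was lower in every explant than in every iris, while Cox8b overlapped between the groups, and neither difference passed the threshold. Smooth muscle markers summed to less in explants than in irises, as given above, and 3 of 8 were lower, as were 4 of 8 iris and pigment epithelium markers, 5 of 5 lens markers tested and Ckm, the 1 striated muscle marker tested (-0.81 ± 0.22, log2 fold change and SE). Of 8 macrophage markers 5 were higher. Their part in these values was not tested.

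The third comparison set the 3 hepatocyte preparations against the 3 livers they are meant to represent. edgeR tested 78 of the 83 subunit genes and called 0. Positive log2 fold changes were found in 60 genes and negative ones in 18, with a median of 0.094 against 0.0092 for all genes. Of 12236 genes tested only 3.62% were called, 0.785% higher and 2.84% lower. At an unadjusted p under 0.05, 6 subunit genes were higher and 0 lower. DESeq2 called 1, Sdha, and limma-voom 0. Sdha measured 1366, 1339 and 1423 CPM in hepatocyte preparations and 978, 980.1 and 1091 CPM in livers (log2 fold change 0.38, SE 0.11, adjusted p = 0.0816, edgeR). Its partner Sdhb measured 598, 555 and 607 CPM and 458, 496 and 461 CPM (log2 fold change 0.25, SE 0.11, adjusted p = 0.193, edgeR). Both catalytic genes of complex II were higher in every preparation than in every liver, whereas the values of the anchor genes, given after they were seen, were close to 0 for Sdhc (-0.048 ± 0.12) and Sdhd (0.081 ± 0.12, log2 fold change and SE). Beside these values, 2 of 7 macrophage, 1 of 6 endothelial and 4 of 5 red cell markers tested were called lower, while 0 of 12 hepatocyte markers were called. When all 5 groups shared 1 fit, which borrows its error from the other groups, 4 of 82 subunit genes were called higher and 1 lower. In that fit 942 of all 17064 genes were called higher and 1309 lower.

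In vitro spheroids had lower subunit transcripts than hepatocyte preparations in every complex. Of 79 subunit genes tested in the 2 in vitro spheroid samples against the 3 hepatocyte preparations, 38 were lower and 0 higher (edgeR), and 78 of 79 had a negative log2 fold change. Among 12247 genes tested 25.8% were called, 12.5% higher and 13.4% lower. The subunit median was -0.54, against 0.0073 for all genes. In complex I 16 of 36 genes fell, in complex II 3 of 4, in complex III 4 of 8, in complex IV 7 of 14 and in complex V 8 of 17, and the medians over the complexes lay between -0.51 for complex I and -0.78 for complex II. The gene that departed most from this was Cox7a2l, which measured 212 and 271 CPM in spheroids and 261, 216 and 236 CPM in hepatocyte preparations (log2 fold change 0.04, SE 0.19, adjusted p = 0.892, edgeR).

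Ndufb10 and Ndufb3, accessory subunits of the membrane arm of complex I, had the lowest log2 fold changes among subunit genes after Ndufa4l2. Ndufb10 measured 129 and 125 CPM in the 2 spheroid samples and 290.0, 247 and 304 CPM in the 3 preparations (log2 fold change -1.12, SE 0.17, adjusted p = 0.00375, edgeR). Ndufb3 measured 63.5 and 74.97 CPM and 139.6, 146 and 155 CPM (log2 fold change -1.07, SE 0.16, adjusted p = 0.00375, edgeR). Both were about 2-fold lower, with both spheroid samples below every preparation. Ndufa4l2 itself was lower as well (log2 fold change -1.92, SE 0.58, adjusted p = 0.0459, edgeR) but at very low levels of 1.21 and 1.45 CPM against 6.68, 2.95 and 6.01 CPM. At the other end of the called genes, Ndufa12, Atp5mpl and Ndufb6 fell by 0.51, 0.53 and 0.56 on the log2 scale. In Ndufb6 38.998% of exon bases are shared with Smim27 on the other strand.

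The catalytic genes of complex II fell together. Sdha measured 663 and 837 CPM in spheroids (log2 fold change -0.85, SE 0.22, adjusted p = 0.0254, edgeR) and Sdhb 279 and 357 CPM (log2 fold change -0.86, SE 0.20, adjusted p = 0.0187, edgeR), both below all 3 preparations and all 3 livers. Uqcrc1, whose promoter window is shown above, measured 430.4 and 452 CPM against 799, 779 and 791 CPM (log2 fold change -0.82, SE 0.18, adjusted p = 0.0163, edgeR). The other 2 genes with a printed window did not pass the threshold, with -0.49 ± 0.17 for Cox6a1 and -0.44 ± 0.18 for Atp5g2 (log2 fold change and SE, adjusted p = 0.0679 and 0.11, edgeR), while Atp5g3, the main gene of the c-ring, fell (log2 fold change -0.88, SE 0.17, adjusted p = 0.00996, edgeR). Cox5a, Cox8a and Cox4i1 of complex IV fell by 0.73, 0.68 and 0.58 on the log2 scale. The values of Atp5a1, Atp5b, Ndufs1, Ndufv1 and Uqcrfs1 were -0.51 ± 0.22, -0.43 ± 0.21, -0.41 ± 0.23, -0.40 ± 0.19 and -0.50 ± 0.19 (log2 fold change and SE), with adjusted p from 0.0984 to 0.234 in edgeR, and the 2 spheroid samples differed from each other in Ndufs1 more than in any other of these genes.

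The number of calls in spheroids rested on few samples. Without spheroid 1 the members called fell from 40 to 11, without hepatocyte preparation 3 to 13 and without preparation 1 to 21, all of them lower, and with library size alone 15 subunit genes were lower and 0 higher. The direction of the median held in each of these, between -0.28 with library size alone and -0.68 without spheroid 2. Beside these genes, 3 of 12 hepatocyte markers were lower in spheroids with a median of -0.61 on the log2 scale, 5 of 8 macrophage markers were higher, and so was Acta1, the 1 striated muscle marker tested (4.14 ± 0.84, log2 fold change and SE), at 22.1 CPM in spheroid 1 and 3.98 CPM in spheroid 2. Their part in the subunit values was not tested.

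**Figure D4:**
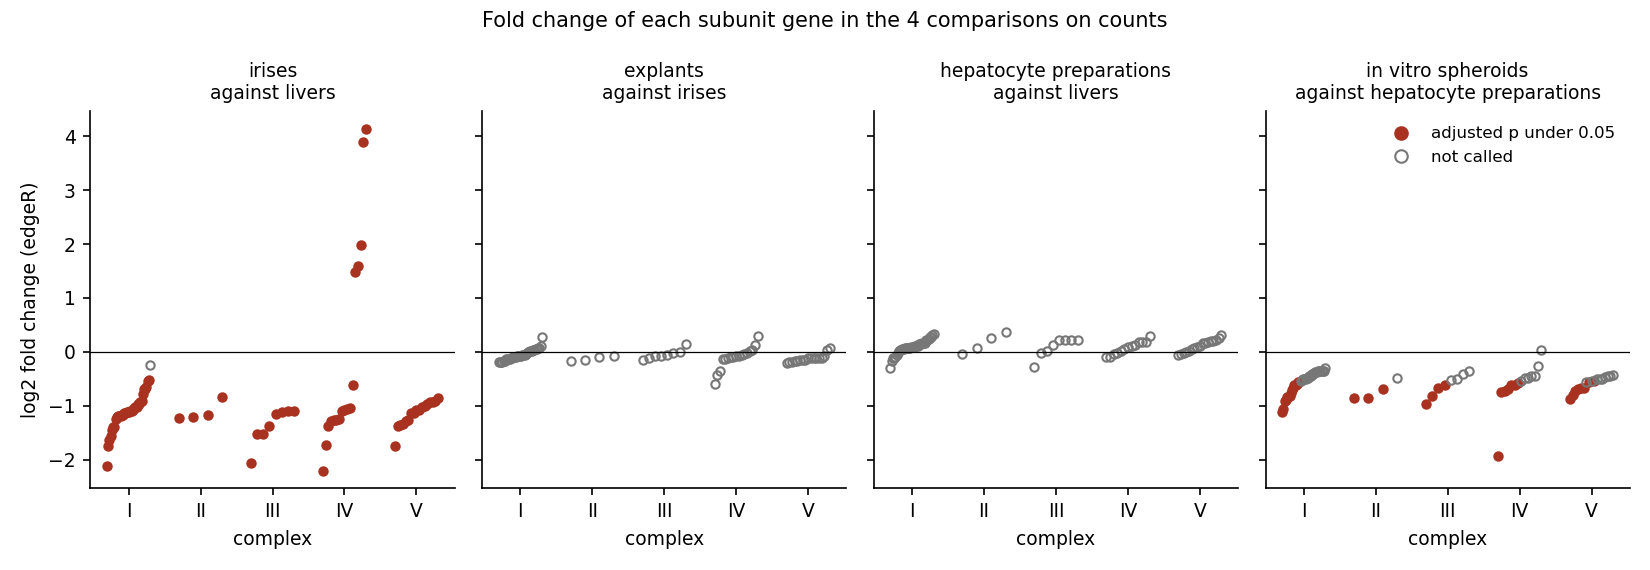
Log2 fold change (edgeR) of each subunit gene tested, by complex, in the 4 comparisons on counts, with filled points for an adjusted p under 0.05. In irises against livers 76 filled points lie below 0 and 5, all in complex IV, above it, and in spheroids against hepatocyte preparations 38 lie below 0 and none above.

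The last comparison addressed the liver part of the explants after the iris part is subtracted. Solved from the deposited values, the iris shares used for explants 1, 2, 4, 5 and 6 were 82, 68, 81, 72 and 59%, and the formula in the methods was applied with these shares to all 5 explants. It takes the iris mean multiplied by the share from each explant, divides what remains by the remaining share, and sets values below 0 to 0. The corrected subunit levels were far more scattered than the measured ones. In explant 4 the correction took 41 of 83 subunit genes to 0, in explant 1 23, in explant 5 2, and in explants 2 and 6 none. Of all genes above 0, it took between 16.7% and 24.2% to 0 in the 5 explants. The summed corrected TPM of the 83 genes was 5728, 16746, 4912, 14485 and 21764 in explants 1, 2, 4, 5 and 6. Explants 1 and 4, which had the highest iris shares, were lowest, and explant 6, with the lowest share, was highest. The means over the 5 explants added up to 42.9% of the liver sum, from 35.3% in complex V to 46.6% in complex IV.

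**Figure D5:**
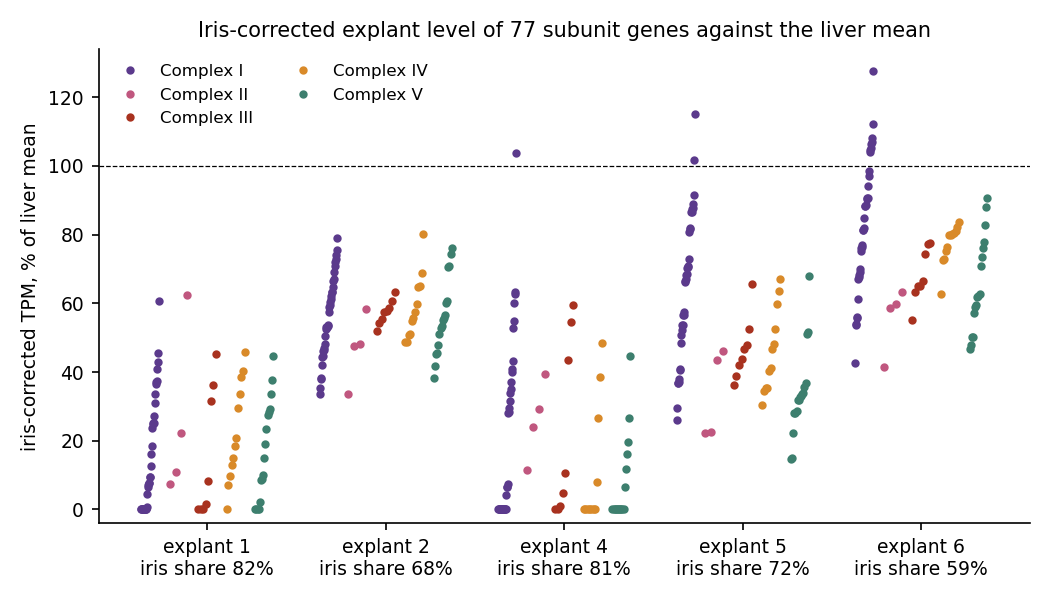
Iris-corrected TPM of each subunit gene in the 5 explants as a percentage of the liver mean (dashed line at 100%), by complex, for the 77 genes with a liver mean of at least 20 TPM. The medians were 13.1, 55.8, 4.26, 47.8 and 76.1% in explants 1, 2, 4, 5 and 6, and many genes lie on 0 in explants 1 and 4.

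Against livers, 12 of the 83 subunit genes were lower and 2 higher in corrected explants (limma on log2(TPM + 1), Benjamini-Hochberg adjustment). The same iris mean was taken from all 5 explants, so an error in it is common to them. Division by the remaining share enlarges such errors. The p-values of this comparison leave out errors in the iris mean and in the shares. Of the 21002 genes tested 15.7% were called, 12.2% higher and 3.5% lower. The subunit median was -1.90 and that of all genes 0.61, on the log2(TPM + 1) scale. Called lower were 2 genes of complex I, 3 of complex II, 2 of complex III, 1 of complex IV and 4 of complex V, and 7 of the 12 were core subunits of complex I, catalytic subunits or F1 subunits. None of the 12 was at 0 in any explant. Uqcrfs1 measured 348, 399, 419, 335 and 486 corrected TPM in explants 1, 2, 4, 5 and 6 and 786, 759.7 and 758 TPM in livers (log2 fold change -0.96, SE 0.16, adjusted p = 0.00535, limma). Atp5c1, the F1 gamma subunit, measured 144, 276, 138, 171 and 262 and 534, 510.2 and 522 TPM (log2 fold change -1.45, SE 0.27, adjusted p = 0.00795, limma). Sdhc measured 10.4, 47.6, 16.1, 31.4 and 82.99 and 151, 148 and 126 TPM (log2 fold change -2.23, SE 0.60, adjusted p = 0.0363, limma). In these 3 genes every corrected explant lay below every liver. Genes with values at 0 had large standard errors, as Cox7a2, at 0 in 2 explants and 379, 297 and 484 corrected TPM in the others (log2 fold change -4.17, SE 2.28, adjusted p = 0.251, limma).

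The 2 genes called higher were iris isoforms. Cox6b2 measured 231, 77.3, 27.7, 239 and 109.6 corrected TPM in explants against 4.402, 6.35 and 3.57 TPM in livers (log2 fold change 4.24, SE 0.67, adjusted p = 0.00459, limma), and Ndufa4l2 47.3, 22.9, 49.4, 37.3 and 50.3 against 5.08, 11.7 and 10.3 TPM (log2 fold change 2.10, SE 0.41, adjusted p = 0.0103, limma). Both lay above all livers in every explant. Before the correction the explants overlapped the irises, since Cox6b2 measured 170.5, 132, 133, 180.1 and 138 TPM in explants and 154, 141 and 176 TPM in irises. In corrected explants 4 of 8 smooth muscle and 7 of 8 macrophage markers were also higher than in livers. Of 12 hepatocyte markers 5 were higher and 1 lower, with a median of 0.33 on the log2 scale. The part of these markers in the subunit values was not tested. Cox8b, by contrast, was at 0 in 2 corrected explants and 177, 14.7 and 135 TPM in the others (log2 fold change 0.12, SE 1.80, adjusted p = 0.97, limma). The calls depended on the correction and on the fit. With the replicate number as a block no gene was called among all 21002 tested, so that fit says nothing particular to subunit genes. The deposited column of explant 4 was made from the iris mean in another way. With it no subunit gene was called, while 302 of 20489 genes were lower and 1151 higher. Without explants 1 and 4, an alternative chosen after seeing the data, 37 subunit genes were lower and 2 higher with a median of -0.76. Of 19310 genes 1115 were then lower and 2921 higher, with a median of 0.43. Before any correction 63 subunit genes were lower and 6 higher, with a median of -0.41. Of 19764 genes 2727 were then lower and 11339 higher, with a median of 0.86. Leaving out 1 liver brought the subunit genes called lower to 3 each time. Over all genes, those called lower fell from 736 to 338, 215 and 197 without livers 1, 2 and 3. Those called higher fell from 2554 to 1539, 953 and 968.

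The assembly factors among the members moved in both directions. In irises Ndufaf1, Ndufaf2, Ndufaf4, Ndufaf6 and Ndufaf8 were lower than in livers, and Ndufaf5, which hydroxylates a core subunit of complex I, was higher (log2 fold change 0.92, SE 0.19, adjusted p = 0.00216, edgeR), as was the methyltransferase Ndufaf7 (log2 fold change 0.32, SE 0.11, adjusted p = 0.0325, edgeR). Ndufaf3 was not called (-0.094 ± 0.16, log2 fold change and SE). In spheroids Ndufaf6 and Ndufaf8 were lower than in hepatocyte preparations. Ndufaf6 measured 13.01 and 15.2 CPM against 35.3, 37.5 and 38.6 CPM (log2 fold change -1.37, SE 0.24, adjusted p = 0.00579, edgeR). In the transcripts of Ndufaf2 65.1% of stretches of 31 bases occur in other genes too, so its value is uncertain. The 3 pseudogenes or retrocopies were too low to be tested on counts. A further list of 41 assembly factors of the complexes, of which 40 or 41 were tested on counts, showed 26 lower and 3 higher in irises against livers, 0 and 0 in explants against irises, 2 higher and 0 lower in hepatocyte preparations against livers, and 8 lower and 0 higher in spheroids against hepatocyte preparations. The shares of all genes called in these comparisons were 73.6%, 11.8%, 3.62% and 25.8%, in the same order, with 13.4% lower in the last. The 8 were Fmc1, Sco2, Ecsit, Cox16, Cox14, Lrpprc, Surf1 and Sdhaf4, of which Fmc1, needed to assemble ATP synthase, fell most (-1.61 ± 0.20, log2 fold change and SE).

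The enzymes and carriers that feed the chain were read from lists. Of 13 citric acid cycle genes, 11 were lower and 1, Idh3a, was higher in irises against livers, with a median of -0.72 on the log2 scale. In explants 2 were lower than in irises (Idh3b and Idh3g) and 2 in spheroids than in hepatocyte preparations (Suclg1 and Idh3b), where 2.74% and 13.4% of all genes were lower. Of 11 carriers and electron donors, 8 were lower and 2 higher in irises against livers, where 34.5% and 39.1% of all genes were. In explants against irises 3 were lower and 0 higher. In spheroids against hepatocyte preparations 2 were lower and 1 higher, where 12.5% of all genes were higher. The electron transfer flavoprotein genes Etfa and Etfb were lower in irises than in livers (-1.96 ± 0.097 and -1.99 ± 0.10). Both were also lower in spheroids than in hepatocyte preparations (-0.80 ± 0.22 and -0.70 ± 0.20, log2 fold change and SE). Slc25a4, the muscle form of the ADP/ATP carrier, went the other way. It was higher in irises than in livers (3.13 ± 0.13) and higher in spheroids than in hepatocyte preparations (1.58 ± 0.26), and lower in explants than in irises (-0.30 ± 0.048). Its measured levels were 130.1 and 74.6 CPM in the 2 spheroid samples and 38.6, 27.4 and 38.1 CPM in the 3 hepatocyte preparations, and 473, 471 and 453 CPM in irises. The striated muscle markers that were higher beside it, Ckm in irises and Acta1 in spheroids, are given above, and their part in it was not tested.

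The regulators of mitochondrial biogenesis were higher or lower by gene. Of 12 such genes, 5 were lower and 2 higher in irises against livers, where 34.5% of all genes were lower and 39.1% higher. Tfam, which packages and transcribes mitochondrial DNA, was lower (-1.21 ± 0.11), as was Yy1 (-1.01 ± 0.19), while Ppargc1a, the coactivator PGC-1alpha, was higher (0.99 ± 0.26), as was Nrf1 (0.48 ± 0.13, log2 fold change and SE). In spheroids against hepatocyte preparations Gabpa was lower (-0.51 ± 0.15) and Nrf1 higher (0.76 ± 0.23). None of the 12 was called in explants against irises, in hepatocyte preparations against livers or in corrected explants against livers. Gabpa shares exon bases with the subunit gene Atp5j on the other strand, which are counted for both.

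The 13 subunits encoded by mitochondrial DNA could not be read against their nuclear partners. Duplicate reads had been removed, and if 1 read is kept per start position and strand, a library can hold about 2 counts per base. This limit is an assumption, since the paper lists UMI-tool dedup for that step and states no limit. The gene mt-Nd1 reached 1.64 counts per base in 1 library and mt-Cytb 1.52. The counts of mt-Nd1 stayed between 3736 and 4559 in all 16 samples. At the other extreme mt-Co2 had at most 3 counts and mt-Co3 at most 8 in a sample. Among the nuclear subunit genes the highest value was 0.741 counts per base, in Cox8a, and 13 of the 83 passed 0.4 in at least 1 library.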

How the data were processed

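RNA from 16 samples was sequenced by Smart-seq3 as 48 libraries. The authors aligned reads to mm10 with TopHat2, removed duplicate reads, for which the paper lists UMI-tool dedup, and counted per gene with featureCounts. The deposited counts are raw, with strand not used and reads over overlapping genes counted for each. The deposited table of 16 samples equals the sum of 3 libraries each. TPM values were made by the authors from those counts and gene lengths. The iris-corrected signal of the explants was made by the authors by subtracting the iris share of the mean iris TPM, dividing by the remaining share and setting negative values to 0. Its shares were solved from the deposited values, and the formula was applied alike to all 5 explants, since the deposited column of explant 4 followed another form.

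Counts were tested with edgeR 4.0.16 in R 4.3.3 (filterByExpr, TMM, quasi-likelihood test), each comparison fitted on its own 2 groups. Corrected TPM was tested with limma 3.58.1 on log2(value + 1) for genes with a mean of at least 1 TPM. Adjusted p is Benjamini-Hochberg over all genes tested, with a threshold of 0.05. DESeq2 1.42.0, limma-voom, other scalings and filters, a replicate block, the undoing of the limit of 2 read starts per base, and leaving out each sample were alternatives. The tests were run on simulated data before use. Genes were named by GENCODE M21, which matched 46005 of 46517 identifiers. Counts per sample from 2718518 to 6789648 set the precision, and p-values cover the spread between samples. Members and lists were chosen with earlier results of these data known. The genes named in the text are 10 central subunits fixed by role, the isoform families of complexes IV and V, the 3 lowest and 3 highest log2 fold changes among called subunit genes in each comparison, the most abundant gene of each complex, members that are no subunit, and untested members. Ndufab1, Ndufv2 and the values of Sdhc and Sdhd in hepatocyte preparations were chosen after their values were seen, and other genes stand with their list.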

Additional observations from a re-analysis of the deposited data

Results flagged for a closer look

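In a group of 5 samples a value was taken as standing apart when its gap to the nearest other sample was above 0.71 of the whole range (Dixon's 95% critical value), which chance gives in about 1 of 20 groups. Among 78 such values in explants, 9 passed. In TMM-normalised CPM these were Atp5a1 in explant 5, the lowest at 533, Ndufs1 in explant 4, the highest at 253, and Sdhc in explant 6, the highest at 101. In iris-corrected TPM they were Atp5a1 in explant 5 at 219, Cox4i2 in explant 6 at 7.39, Cox6a2 in explant 5 at 11.5, Ndufs1 in explant 4 at 95.0, Ndufv1 in explant 1 at 97.8 and Uqcrc1 in explant 1 at 106. Explant 4 is the sample with the most subunit genes at 0 after correction, 41 of 83.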

How the results depend on the processing

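In irises against livers 88 of 90 members were called, and between 67 and 88 under every alternative. Among 490 repeats for 35 named genes there, 484 kept the direction and the side of the threshold, 3 lost the call and 3 reversed, all with library size alone: Ndufa12 at 0.14, Ndufs1 at 0.16 and Cox7a2l at 0.068 on the log2 scale. In spheroids against hepatocyte preparations 64 of 193 repeats for 15 named genes lost the call, and in corrected explants against livers 64 of 204 for 12 named genes, with none reversed. In explants against irises 0 members became 3 with DESeq2 and 12 with library size alone, and 0 to 11 when 1 sample was left out. Of all genes, 460 lower and 1515 higher became 890 and 1367 with library size alone, and 596 and 1366 without explant 6. In hepatocyte preparations against livers 0 became 1 with DESeq2 and 7 with all 5 groups in 1 fit, where 942 of 17064 genes were higher and 1309 lower. In spheroids against hepatocyte preparations 40 became 4 with an absolute log2 fold change over 1, 16 with library size alone, 66 with all 5 groups in 1 fit, and 11 to 37 when 1 sample was left out, with 11 without spheroid 1, 13 without hepatocyte preparation 3 and 21 without preparation 1. For corrected explants against livers 14 became 0 with the deposited column of explant 4, 75 before correction, 9 with iris shares by non-negative least squares, 39 without explants 1 and 4 (chosen after seeing the data), and 5 to 21 when 1 sample was left out, with 5 without liver 2 or liver 3. The cause was not tested. With the limit of read starts undone, summed TPM moved by over 1 SD in spheroids to 8886 for complex I, 4858 for complex V and 23656 for all 5 complexes, and for complex II to 1562 in explants and 1809 in irises.

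Replicate numbers are shared between groups, but no label ties them to an animal or batch, and correlations of deviations between samples of the same number ran from -0.13 to 0.098, so they were not taken as pairs. As a replicate block they gave 11 calls in spheroids against hepatocyte preparations, 0 in corrected explants against livers, 87 in irises against livers, 0 in explants against irises and 0 in hepatocyte preparations against livers. In corrected explants against livers that block left no call among all 21002 genes. With 3 pairs, 1 of 3 irises and 1 of 3 livers correlated best with the other group's sample of the same number, and 1 of 3 hepatocyte preparations and 2 of 3 livers.

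Transcripts at a few CPM, such as Cox4i2 and Cox6a2, were near the depth limit, and Cox6a2 could not be tested on counts.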
